A study of Mus musculus with 16 samples.

Results

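Fatty acid oxidation and its regulators were represented by 39 genes, chosen by name for their place in the pathway and not by any measured value. Of these, 35 had a probe set on the array that named no other gene, out of 19937 genes measured in this way. Acsl1, a long-chain acyl-CoA synthetase, and Ucp2, an uncoupling protein, had no probe set listed for them. Acsl3 and Cpt1b were read only by probe sets whose annotation also named a second gene, so their values are given apart and they are not counted below.

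Fatty acids are taken up across the cell membrane, joined to coenzyme A, and carried into mitochondria by the carnitine shuttle, whose entry enzyme is inhibited by malonyl-CoA. Inside the mitochondrion the β-oxidation spiral shortens each acyl chain through an acyl-CoA dehydrogenase, a hydratase, a hydroxyacyl-CoA dehydrogenase and a thiolase, and electron transfer flavoproteins pass the released electrons to the respiratory chain. The embryonic heart depends largely on glucose and lactate and turns to fatty acids as its main fuel around and after birth, under peroxisome proliferator-activated receptors (PPARs), oestrogen-related receptors (ERRs) and the PGC-1 coactivators.

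Whole hearts of C57BL/6 mouse embryos were profiled at embryonic day E13.5 and at E11.5, with 4 Chd7fl/fl;Mesp1-Cre hearts and 4 control hearts at each stage. In the mutants both alleles of Chd7, which encodes a chromatin remodelling enzyme, carried recombination sites, and Cre recombinase under the Mesp1 promoter deletes the flanked part in early anterior mesoderm, the source of the myocardium and endocardium. Cells from other sources, such as neural crest, are not targeted by Mesp1-Cre, so a whole mutant heart can still hold cells with intact Chd7. The controls were labelled WT. The study's methods give them as Chd7+/+;Mesp1-Cre, whereas the cross named in the labels (Chd7fl/+;Mesp1-Cre with Chd7fl/fl) cannot give a Chd7+/+ embryo, so which Chd7 and Cre alleles the controls carried was not settled from the sources used here. Each array held one heart, and whether hearts of different groups came from the same litters was not stated.

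Expression is given as RMA-normalised log2 intensity, on which a difference of 1 is a doubling, and values are compared between hearts for the same probe set, never between genes. Chd7 itself averaged 8.97 ± 0.08 in mutant and 10.06 ± 0.24 in control hearts at E13.5, and 9.46 ± 0.29 in mutant and 10.75 ± 0.13 in control hearts at E11.5 (SD, n = 4 each), with adjusted p = 0.0209 and 0.00132 from limma. That probe set was the brightest of 30 naming only Chd7, and its position relative to the deleted part was not given. These values therefore do not measure the full extent of the loss. In an earlier analysis of these arrays 3 hearts had stood apart, namely mutant E11.5 replicates 3 and 4 and control E13.5 replicate 1, and results that changed without them are given both ways. The median shift of 21 hypoxia-induced genes was 1.04 in mutant E11.5 replicate 4 and 0.05 to 0.20 in the other mutant hearts of that stage, and that of lung and foregut markers was 0.58 in control E13.5 replicate 1 and -0.24 to 0.02 in the other control hearts. The groups were not balanced for sex, as read from the mean log2 intensity of 3 Y-linked genes. At E11.5 this mean was 5.20 and 4.63 in mutant replicates 1 and 4, and 8.26 to 8.93 in the other hearts. At E13.5 only mutant replicate 4 (9.31) and control replicates 4 and 5 (9.24 and 9.26) read above 5.40. Sex thus differed in part with genotype and with stage, and a Y-linked covariate was among the alternatives run. Throughout, a gene is called changed where limma's Benjamini-Hochberg adjusted p over all 34760 probe sets was below 0.05 and the log2 fold change exceeded 0.5 in size. The spread between hearts of one group was small for most members, with SDs between 0.02 for Hadh in mutant hearts at E13.5 and 0.45 for Ucp3 in control hearts at E13.5.

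The comparison of mutant with control hearts asked whether loss of Chd7 from the Mesp1 lineage changed these genes. None of the 35 members was called at either stage. The members closest to a change were Cd36, which carries long-chain fatty acids across the cell membrane and lay lower in mutant hearts, and Lpl, the lipase that frees fatty acids from circulating triglyceride, which lay lower in mutant hearts at E11.5. By contrast 22 members were upregulated in mutant and 19 in control hearts at E13.5 relative to E11.5, beside 16.8% and 16.5% of all genes. With arrays scaled to one median and spread, the counts were 10 and 8, beside 11.2% and 10.8% of all genes.

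**Figure D1:**
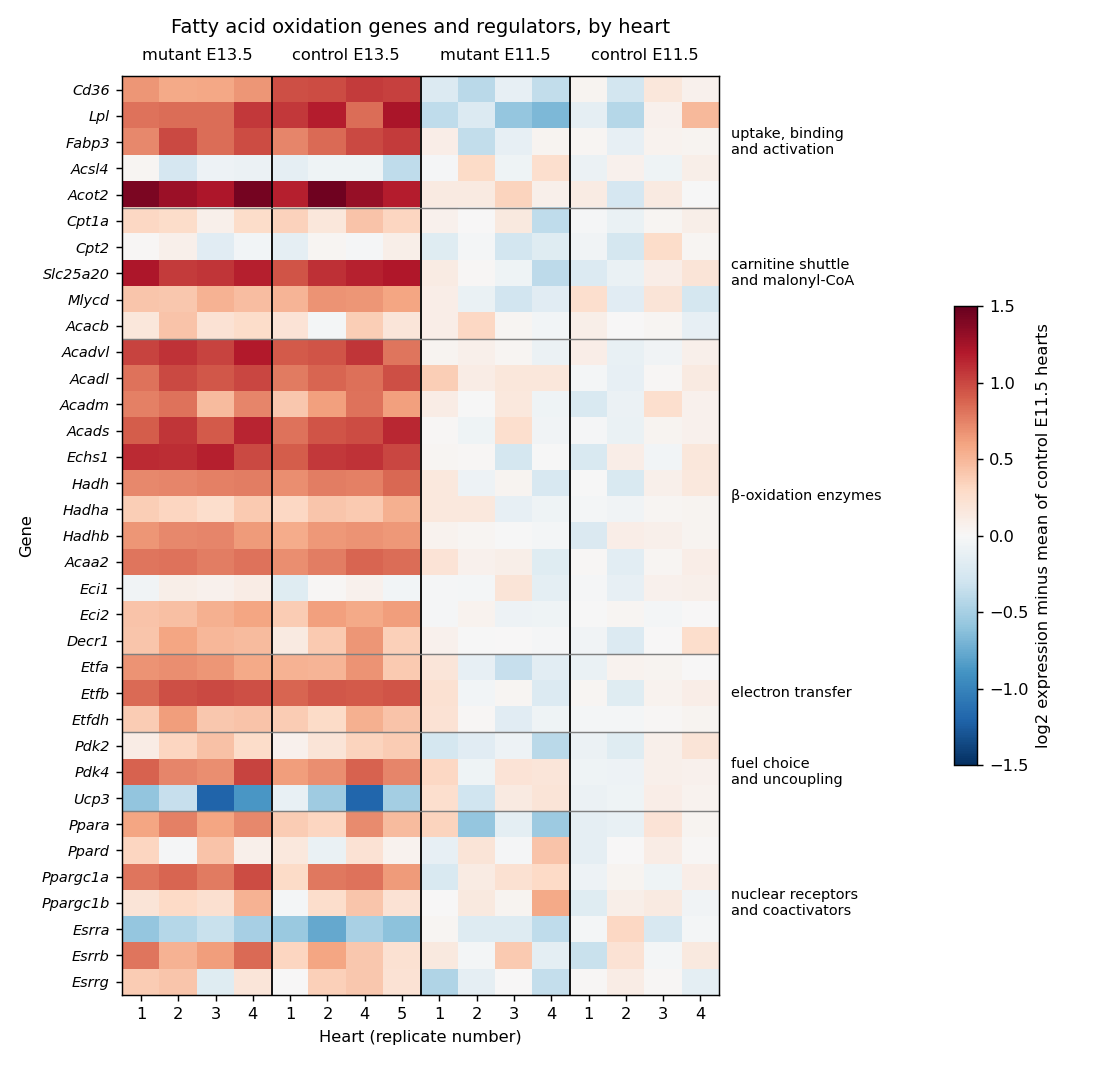
Log2 expression of the 35 measured members (rows, grouped by role) in each of the 16 hearts (columns), shown as the difference from the mean of the control E11.5 hearts, with colour running over ±1.5 log2 units. The E13.5 columns differ from the E11.5 columns across most rows, whereas mutant and control columns of one stage look alike; for Cd36 all 4 mutant E13.5 hearts lie between 10.38 and 10.47, below the control range of 10.78 to 10.86.

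At E13.5, Cd36 read 10.47, 10.38, 10.39 and 10.47 in mutant hearts, against 10.78, 10.79, 10.86 and 10.84 in control hearts. The highest mutant value was below the lowest control value, a separation in either direction that 4.08% of all genes showed at this stage. The log2 fold change was -0.39 (SE 0.10), with a 95% interval of -0.61 to -0.17, so that mutant hearts held 76.4% of the control level. The two-sided exact permutation test gave p = 0.0286, the smallest that 4 hearts against 4 allow, but limma's p of 0.00173 did not pass adjustment over all probe sets (adjusted p = 0.507) and the change was smaller than 0.5.

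At E11.5, Cd36 read 9.60, 9.40, 9.69 and 9.44 in mutant hearts, against 9.86, 9.53, 9.98 and 9.87 in control hearts. The groups overlapped here, with 2 of the 4 mutant hearts below the lowest control heart. The difference was -0.28 (82.5% of the control level), with p = 0.0857 in the exact permutation test and an adjusted p of 0.384 from limma. Averaged over both stages, a contrast added after the data were seen, Cd36 was -0.33 (SE 0.07, 95% interval -0.49 to -0.18) with an adjusted p of 0.0665. Over the 25 alternative settings this adjusted p lay between 0.0132 and 0.246 and fell below 0.05 in 6 of them, whereas the change never reached 0.5.

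Cd36 is found on endothelial cells, macrophages and adipocytes as well as on cardiomyocytes, so markers of those cells were read in the same hearts. All 8 endothelial markers were measured, and the median of their shifts from the control average was -0.26 to -0.06 in mutant hearts and -0.05 to 0.05 in control hearts at E13.5, with no single marker called. At E11.5 it was -0.19 to 0.04 in mutant hearts and -0.05 to 0.08 in control hearts. By this median the endothelial list lay lower in all 4 mutant hearts than in the control hearts at E13.5, as Cd36 did, whereas its mean log2 intensity overlapped, at 10.63 to 10.87 in mutant and 10.84 to 10.93 in control hearts. The macrophage markers spread more widely, at -0.03 to 0.73 in mutant and -0.17 to 0.18 in control hearts at E13.5, and at -0.29 to 0.50 in mutant and -0.15 to 0.13 in control hearts at E11.5. Cardiomyocyte markers differed little at E13.5, with shifts of -0.04 to -0.02 in mutant and -0.05 to 0.04 in control hearts, and the 6 adipocyte markers averaged a log2 intensity of 5.72 to 5.90 in mutant and 5.78 to 6.08 in control hearts. The part of these cell types in the Cd36 values was not tested, and in whole hearts fewer cells of a type and less RNA per cell cannot be told apart.

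Lpl read 9.44, 9.61, 9.24 and 9.15 in mutant hearts at E11.5, against 9.69, 9.40, 9.88 and 10.31 in control hearts. The groups overlapped, and control replicate 4 stood highest. The log2 fold change was -0.46 (SE 0.17), that is 72.8% of the control level, with an exact permutation p of 0.0857 and an adjusted p of 0.373 from limma. Without control E11.5 replicate 4 the difference was -0.30, and without the 3 hearts named above it was -0.29. At E13.5 Lpl read 10.64, 10.66, 10.65 and 10.88 in mutant hearts, against 10.88, 11.00, 10.66 and 11.05 in control hearts, or 87.7% of the control level, again with overlapping groups.

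The enzymes and regulators showed no called difference in either direction. Acadl, the long-chain acyl-CoA dehydrogenase, read 11.19, 10.93, 10.98 and 10.98 in mutant hearts at E11.5, against 10.79, 10.68, 10.83 and 10.94 in control hearts. Of the mutant hearts 3 lay above the highest control heart, and the difference was 0.21 with an exact permutation p of 0.0571 (adjusted p = 0.490, limma). Pdk2, a kinase that switches off pyruvate dehydrogenase and so spares glucose, read 10.53, 10.62, 10.72 and 10.38 in mutant hearts at E11.5, against 10.70, 10.60, 10.87 and 10.98 in control hearts, a difference of -0.23 (exact permutation p = 0.143). Esrrg, an orphan nuclear receptor of the ERR family, read 9.30, 9.62, 9.77 and 9.39 in mutant hearts, against 9.78, 9.87, 9.77 and 9.61 in control hearts, a difference of -0.24 (exact permutation p = 0.114). The groups of both genes overlapped.

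At E13.5, Esrrb, another ERR, read 8.14, 7.86, 7.97 and 8.19 in mutant hearts, against 7.67, 7.94, 7.76 and 7.58 in control hearts. The difference was 0.31 with an exact permutation p of 0.0571, and 3 of the 4 mutant hearts lay above the highest control heart. Ppargc1a, which encodes the coactivator PGC-1α, read 11.40, 11.47, 11.37 and 11.57 in mutant hearts, against 10.88, 11.38, 11.41 and 11.23 in control hearts, a difference of 0.23 (exact permutation p = 0.143). Its groups overlapped, and control replicate 1, one of the 3 hearts named above, was the lowest. Acadvl, the very long-chain dehydrogenase, read 9.45, 9.51, 9.45 and 9.62 in mutant hearts, against 9.35, 9.38, 9.50 and 9.23 in control hearts (difference 0.14, exact permutation p = 0.0857). Mlycd, which breaks down the shuttle inhibitor malonyl-CoA, read 8.14, 8.12, 8.24 and 8.18 in mutant hearts, against 8.23, 8.39, 8.38 and 8.30 in control hearts (difference -0.16, exact permutation p = 0.0571). In both cases the groups overlapped.

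Across the list, the count of called members was 0 at E13.5, where 0.0451% of all genes were called, 0 at E11.5, where 0.251% were called, and 0 for both stages averaged, where 0.416% were called. At an unadjusted limma p below 0.05 the counts were 2 members at E13.5 (Cd36 lower and Esrrb higher in mutants), 3 at E11.5 (Cd36 and Lpl lower, Acadl higher) and 3 over both stages (the same genes as at E11.5), beside 3.94%, 9.34% and 8.8% of all genes. The median difference of the 35 members was 0.05 at E13.5 and 0.01 at E11.5, against 0.00 for all genes at either stage. These data bounded the size of any change for most members: the 95% interval lay wholly within ±0.5 for 29 members at E13.5, for 31 at E11.5 and for 34 over both stages, Lpl being the exception in the last case with a lower bound of -0.57. The outermost bounds were -0.62 for Ucp3 and 0.61 for Esrrb at E13.5, and -0.81 for Lpl and 0.52 for Ucp3 at E11.5.

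**Figure D2:**
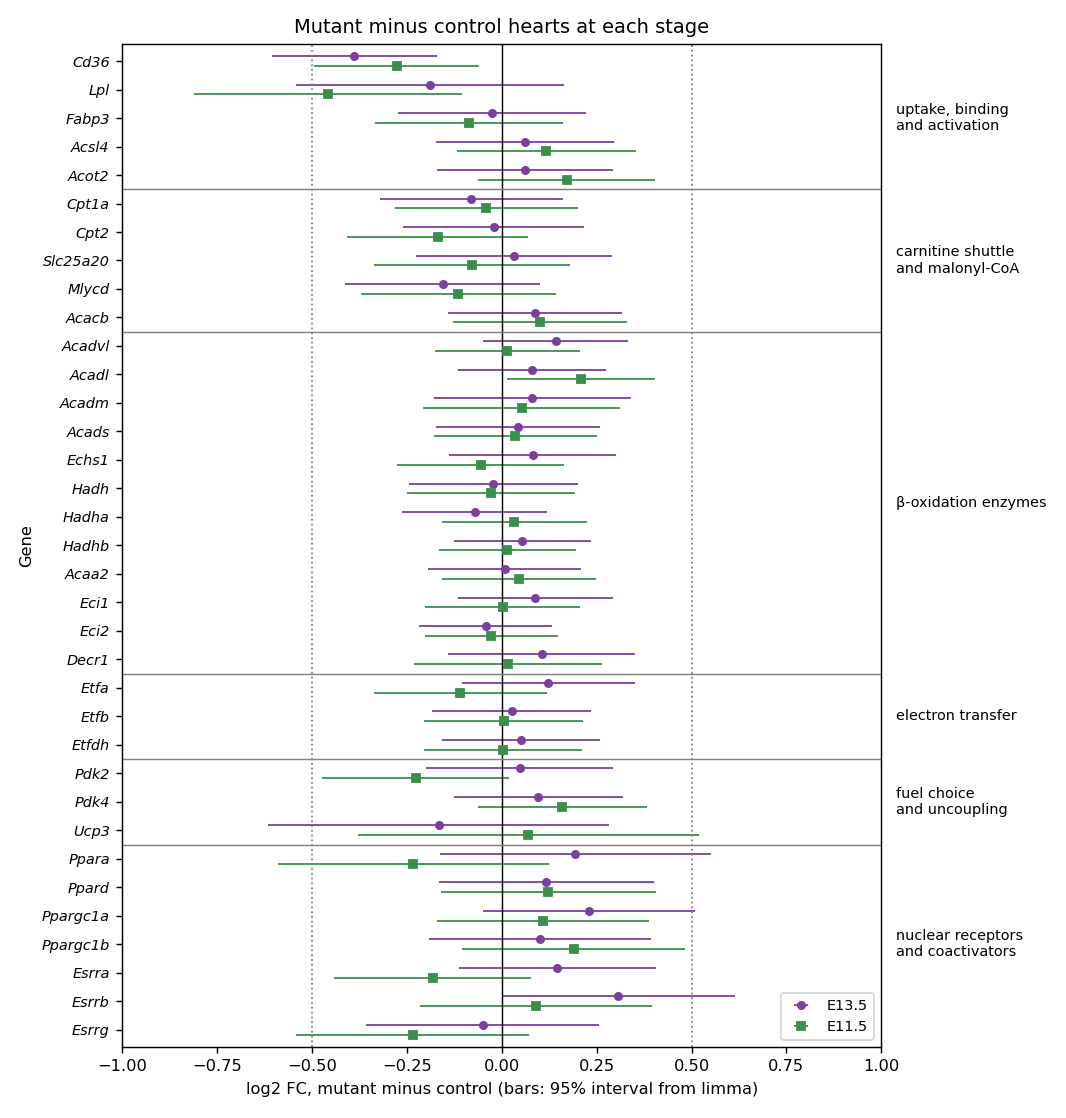
Log2 fold change of each member in mutant relative to control hearts (horizontal axis) at E13.5 (purple circles) and at E11.5 (green squares), with 95% intervals from limma and dotted lines at ±0.5. The intervals of nearly all members cross 0. Cd36 (-0.39 at E13.5, -0.28 at E11.5) and Lpl (-0.46 at E11.5) lie furthest to the left with intervals wholly below 0. Those of Acadl at E11.5 (0.21) and Esrrb at E13.5 (0.31) lie wholly above 0.

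The comparison of E13.5 with E11.5 hearts was made within each genotype and asked how the pathway changed over these days of heart development. In mutant hearts 22 members were upregulated, where 16.8% of all genes were, and only Ucp3 was downregulated, where 12.8% of all genes were. In control hearts 19 members were upregulated, where 16.5% of all genes were, and Ucp3 and Esrra were downregulated, where 12.3% of all genes were. All 19 members upregulated in control hearts were also upregulated in mutant hearts. The median member was higher by 0.64 in mutant and 0.55 in control hearts on the log2 scale, against 0.04 for all genes in either genotype. These member medians depended on the normalisation. They were 0.44 and 0.38 after quantile normalisation, against 0.012 and 0.0065 for all genes. With arrays scaled to one median and spread they were 0.22 and 0.20, against -0.0038 and -0.011. All E13.5 hearts lay above all E11.5 hearts for 25 members in mutants and 24 in controls, where 24.8% and 26.8% of all genes were apart in that direction.

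Of the uptake and activation genes 4 of 5 measured members were upregulated in both genotypes. Cd36 was 1.86-fold higher at E13.5 in mutant and 2.01-fold higher in control hearts, and Lpl was 2.54-fold and 2.11-fold higher in mutant and control hearts, from the values given above, in which the stages did not overlap for either gene. Acot2, a mitochondrial thioesterase that cleaves acyl-CoA, showed the largest fold among all members in control hearts. It read 12.41, 12.28, 12.21 and 12.44 at E13.5 against 11.13, 11.14, 11.34 and 11.08 at E11.5 in mutant hearts, and 12.16, 12.45, 12.31 and 12.18 against 11.12, 10.75, 11.13 and 10.99 in control hearts. The log2 fold change was 1.17 in mutant and 1.28 in control hearts (SE 0.11), with adjusted p = 2.13e-06 and 9.65e-07 from limma.

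Fabp3, the heart-type fatty acid binding protein that carries fatty acids through the cytosol, read 11.77, 12.04, 11.88 and 12.03 at E13.5 against 11.15, 10.67, 10.93 and 11.09 at E11.5 in mutant hearts, and 11.78, 11.90, 12.04 and 12.10 against 11.07, 10.92, 11.10 and 11.09 in control hearts. The stages did not overlap, and the change was 0.97 in mutant and 0.91 in control hearts. Its second, dimmer probe set did not pass the test, at -0.15 in mutant and 0.10 in control hearts (adjusted p = 0.447 and 0.633), so the result for Fabp3 rests on its brighter probe set. Acsl4, which activates arachidonic acid and related chains, did not pass, at -0.22 in mutant and -0.16 in control hearts. It read 9.78, 9.50, 9.68 and 9.66 at E13.5 against 9.74, 10.04, 9.69 and 10.01 at E11.5 in mutant hearts, and 9.62, 9.69, 9.69 and 9.38 against 9.66, 9.82, 9.69 and 9.84 in control hearts, with overlap in both genotypes. The probe set shared by Acsl3 and Utp14b was 0.42 higher in mutant and 0.36 higher in control hearts, below the fold required.

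The carnitine shuttle was divided. Slc25a20, the carrier that exchanges acylcarnitine for carnitine across the inner mitochondrial membrane, read 10.48, 10.31, 10.34 and 10.43 at E13.5 against 9.39, 9.28, 9.20 and 8.87 at E11.5 in mutant hearts, and 10.21, 10.35, 10.41 and 10.46 against 9.06, 9.17, 9.37 and 9.46 in control hearts. It was 2.31-fold higher in mutant and 2.14-fold higher in control hearts, with no overlap between stages. Mlycd was also upregulated, by 0.57 and 0.61 in mutant and control hearts.

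The acyltransferases on either side of the carrier moved less. Cpt1a, the isoform of the entry enzyme that dominates in liver and fetal tissue, read 10.55, 10.51, 10.31 and 10.51 at E13.5 against 10.30, 10.24, 10.39 and 9.86 at E11.5 in mutant hearts, and 10.58, 10.41, 10.66 and 10.55 against 10.21, 10.14, 10.27 and 10.33 in control hearts. Its change of 0.28 in mutant and 0.31 in control hearts (adjusted p = 0.0618 and 0.036) was below the fold required and turned to -0.10 and -0.052 when the arrays were scaled to one spread. Cpt2, the inner membrane transferase, read 10.46, 10.53, 10.28 and 10.40 at E13.5 against 10.26, 10.42, 10.17 and 10.27 at E11.5 in mutant hearts, and 10.31, 10.48, 10.42 and 10.54 against 10.40, 10.19, 10.72 and 10.48 in control hearts. The stages overlapped, with changes of 0.14 and -0.01 in mutant and control hearts. Acacb, which makes malonyl-CoA at the mitochondrion, did not pass either, at 0.17 and 0.18. The probe set shared by Cpt1b, the muscle-type entry enzyme, and Gm44502 read 12.09, 12.23, 12.11 and 12.25 at E13.5 against 11.48, 11.58, 11.70 and 11.72 at E11.5 in mutant hearts, and 12.08, 12.08, 12.19 and 12.21 against 11.58, 11.64, 11.51 and 11.65 in control hearts. It was 0.55 higher in both genotypes (adjusted p = 0.000153 in mutant and 0.000169 in control hearts), a signal that cannot be assigned to Cpt1b alone.

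Within the β-oxidation spiral 9 of 12 measured enzymes were upregulated in both genotypes. Only Acadvl, Acads and Echs1 kept the call when arrays were scaled to one spread, which lost Acadl, Acadm, Hadh, Hadhb, Acaa2 and Eci2 in both genotypes, and quantile normalisation lost Acadm, Hadhb and Eci2 in both. All 4 acyl-CoA dehydrogenases, which take the first step on chains of different length, were among the 9 called on the deposited values. Acadvl was higher by 1.06 and 0.93 in mutant and control hearts. It read 8.47, 8.51, 8.46 and 8.34 in mutant and 8.53, 8.31, 8.37 and 8.50 in control hearts at E11.5, all below the E13.5 values given above. Acadl was higher by 0.73 and 0.86, Acadm by 0.64 and 0.61, and Acads by 0.97 and 0.97 in mutant and control hearts.

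Echs1, the short-chain enoyl-CoA hydratase of the next step, read 10.60, 10.59, 10.65 and 10.47 at E13.5 against 9.51, 9.50, 9.22 and 9.47 at E11.5 in mutant hearts, and 10.39, 10.54, 10.57 and 10.49 against 9.26, 9.58, 9.44 and 9.65 in control hearts. It was 2.22-fold higher in mutant and 2.02-fold higher in control hearts. For the later steps, Hadh, a hydroxyacyl-CoA dehydrogenase, was higher by 0.78 and 0.77 in mutant and control hearts, and Acaa2, a thiolase, by 0.76 and 0.79. The subunits of the trifunctional protein, which carries out the last steps on long chains, differed in whether they were called: Hadhb was upregulated by 0.67 and 0.63, whereas Hadha, at 0.31 and 0.41, passed the adjusted p but not the fold.

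The auxiliary enzymes for unsaturated chains were mixed. Eci2, an enoyl-CoA isomerase, was upregulated by 0.53 and 0.55 in mutant and control hearts. Decr1, a dienoyl-CoA reductase, was not called at 0.48 and 0.39. Eci1, the other isomerase, read 10.75, 10.89, 10.87 and 10.91 at E13.5 against 10.79, 10.77, 11.00 and 10.66 at E11.5 in mutant hearts, and 10.62, 10.82, 10.87 and 10.76 against 10.79, 10.68, 10.86 and 10.88 in control hearts. Its stages overlapped throughout, with changes of 0.05 and -0.03. Of the electron acceptors, the flavoprotein subunits Etfa (0.76 and 0.53) and Etfb (0.94 and 0.92) were upregulated in mutant and control hearts, and Etfdh, which passes their electrons to ubiquinone, was not called at 0.46 and 0.41.

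**Figure D3:**
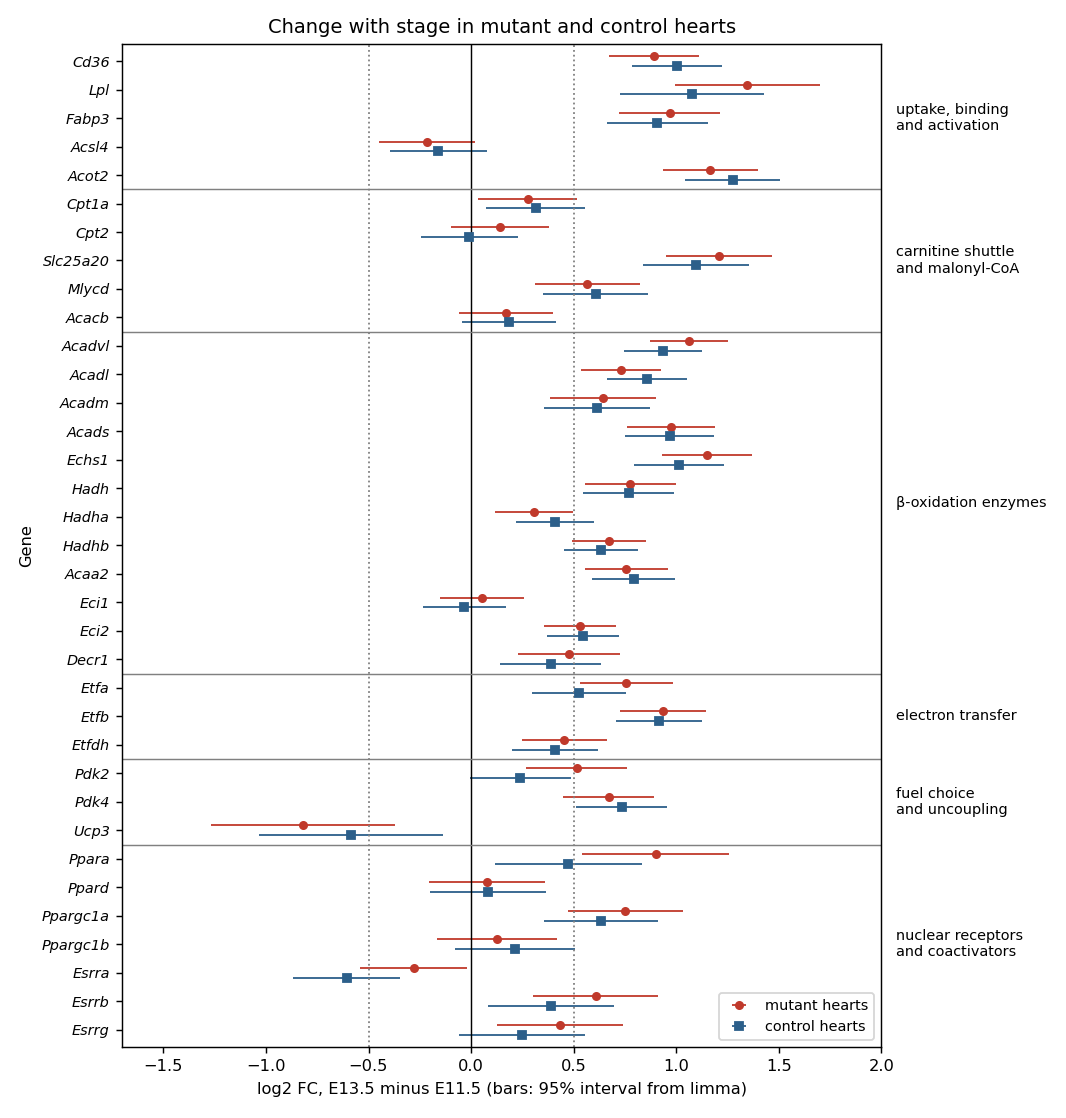
Log2 fold change at E13.5 relative to E11.5 of each measured member (rows, by role) in mutant (red circles) and control hearts (blue squares), with 95% intervals from limma and dotted lines at ±0.5. Most uptake and β-oxidation genes lie to the right of 0.5 in both genotypes, Ucp3 lies to the left at -0.82 in mutant and -0.58 in control hearts, and the pairs of intervals overlap.

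Of the genes of fuel choice and uncoupling, Pdk4 and Pdk2 lay higher on average at E13.5 in both genotypes and Ucp3 lay lower. Pdk4, a pyruvate dehydrogenase kinase that is a textbook target of PPARs, read 10.65, 10.50, 10.46 and 10.78 at E13.5 against 10.07, 9.71, 9.97 and 9.95 at E11.5 in mutant hearts, and 10.40, 10.46, 10.65 and 10.50 against 9.70, 9.69, 9.84 and 9.83 in control hearts. It was upregulated by 0.67 and 0.73 in mutant and control hearts, and the stages did not overlap. The call was lost in both genotypes under quantile normalisation, where the change just missed the fold in control hearts (0.43 in mutant hearts), and when arrays were scaled to one spread (0.31 and 0.40). Pdk2 was called in mutant hearts only, at 0.51 against 0.24 in control hearts (adjusted p = 0.00247 and 0.107). Ucp3, an uncoupling protein of muscle mitochondria and also a PPAR target, was the only member downregulated in both genotypes. It read 5.72, 5.96, 5.11 and 5.44 at E13.5 against 6.56, 6.01, 6.44 and 6.50 at E11.5 in mutant hearts, and 6.19, 5.78, 5.12 and 5.80 against 6.22, 6.25, 6.41 and 6.35 in control hearts. It fell by 0.82 in mutant and by 0.58 in control hearts (adjusted p = 0.00603 and 0.0369). Ucp3 lay among the dim probe sets of the array and varied most between hearts, and its control call was lost in 10 of 25 alternative settings. It lay in group 2 of 5 equal groups of genes ranked from the dimmest. Genes of that group had median stage changes of -0.15 in mutant and -0.14 in control hearts, and 18% and 16.1% were downregulated.

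Of the 7 nuclear receptors and coactivators, 3 were upregulated in mutant and 1 in control hearts. Ppargc1a was called in both, at 0.75 in mutant and 0.63 in control hearts, and read 10.37, 10.71, 10.83 and 10.89 in mutant and 10.52, 10.63, 10.53 and 10.69 in control hearts at E11.5, all below the E13.5 values given above. The call was lost when arrays were scaled to one spread (0.29 in mutant and 0.20 in control hearts) and, in control hearts, under quantile normalisation (0.40). Its second probe set gave larger changes, at 1.26 and 1.22 (adjusted p = 1.4e-05 and 1.87e-05). Ppargc1b, its relative, did not pass at 0.13 and 0.21, and neither did the receptor Ppard at 0.08 in both genotypes.

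Ppara, the PPAR that drives fatty acid oxidation in heart and liver, read 7.67, 7.84, 7.68 and 7.80 at E13.5 against 7.41, 6.50, 6.94 and 6.54 at E11.5 in mutant hearts, and 7.47, 7.40, 7.79 and 7.56 against 6.94, 6.98, 7.28 and 7.12 in control hearts. The stages did not overlap in either genotype, and the gene was called in mutant hearts (0.90, adjusted p = 0.000661) and fell short of the fold in control hearts (0.47, adjusted p = 0.0344). The ERRs differed from one another. Esrra, with 8.73, 8.88, 8.98 and 8.81 at E13.5 against 9.34, 9.12, 9.12 and 8.93 at E11.5 in mutant hearts, and 8.75, 8.55, 8.82 and 8.70 against 9.28, 9.62, 9.07 and 9.28 in control hearts, was downregulated in control hearts (-0.61, adjusted p = 0.00116) and did not pass in mutant hearts (-0.28, adjusted p = 0.0776). Esrrb was 0.61 higher in mutant hearts, which was called, and 0.39 higher in control hearts, which was not, with 7.50, 7.31, 7.74 and 7.20 in mutant and 7.01, 7.56, 7.32 and 7.49 in control hearts at E11.5. Esrrg was 0.43 higher in mutant and 0.25 higher in control hearts, called in neither, and the control value turned to -0.061 under that scaling of the arrays to one spread.

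**Figure D4:**
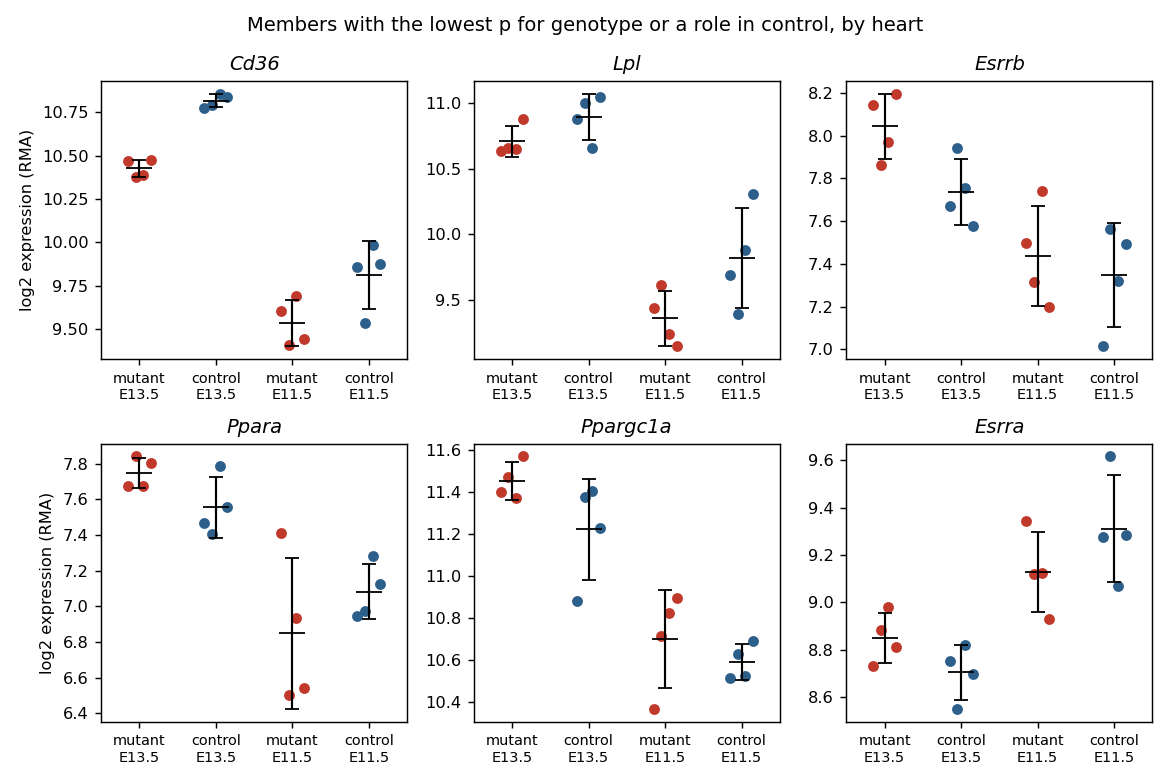
Log2 expression of Cd36, Lpl, Esrrb, Ppara, Ppargc1a and Esrra in each heart (dots) by group, with the group mean (line) and SD (bar), n = 4 hearts a group. Cd36, Lpl, Esrrb, Ppara and Ppargc1a lie higher on average at E13.5 and Esrra lies lower; for Cd36 the mutant E13.5 hearts (10.38 to 10.47) lie below the control E13.5 hearts (10.78 to 10.86).

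Where a member was called in one genotype only, the difference between the stage changes was itself tested, and no member and no gene of the 19937 was called (0% of all genes). At an unadjusted limma p below 0.05 there was no member, beside 3.96% of all genes. The stage change was larger in mutant than in control hearts by 0.43 for Ppara (95% interval -0.08 to 0.93), by 0.27 for Pdk2 and by 0.22 for Esrrb, and for Esrra the mutant minus control difference was 0.33. Over all members 21 differences were positive and 14 negative, with a median of 0.03.

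Changes of members were read against those of all genes of like brightness, since the median change with stage differed with brightness. The spread of intensities within an array was wider at E13.5 (SD 2.38 to 2.42) than at E11.5 (SD 2.18 to 2.26), and whether hearts of both stages were normalised in one run was not stated. Of the 35 members 24 lay in the brightest of 5 equal groups of genes by mean log2 intensity, where 17 were upregulated in mutant and 16 in control hearts, beside 26.9% and 28% of the 3988 genes of that brightness. Their medians were 0.74 in mutant and 0.68 in control hearts, against 0.27 and 0.29 for all genes there. After quantile normalisation of all arrays together, 16 members remained upregulated in mutant and 13 in control hearts (11.6% and 11.4% of all genes), all of them among the original calls. When each deposited array was instead scaled to the same median and spread, 10 and 8 members were upregulated (11.2% and 10.8% of all genes). Besides the losses given above for single genes, the scaling lost Fabp3, Etfa and Etfb in both genotypes and Pdk2 in mutant hearts, and quantile normalisation lost Mlycd and Pdk2 in mutant and Etfa in control hearts.

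**Figure D5:**
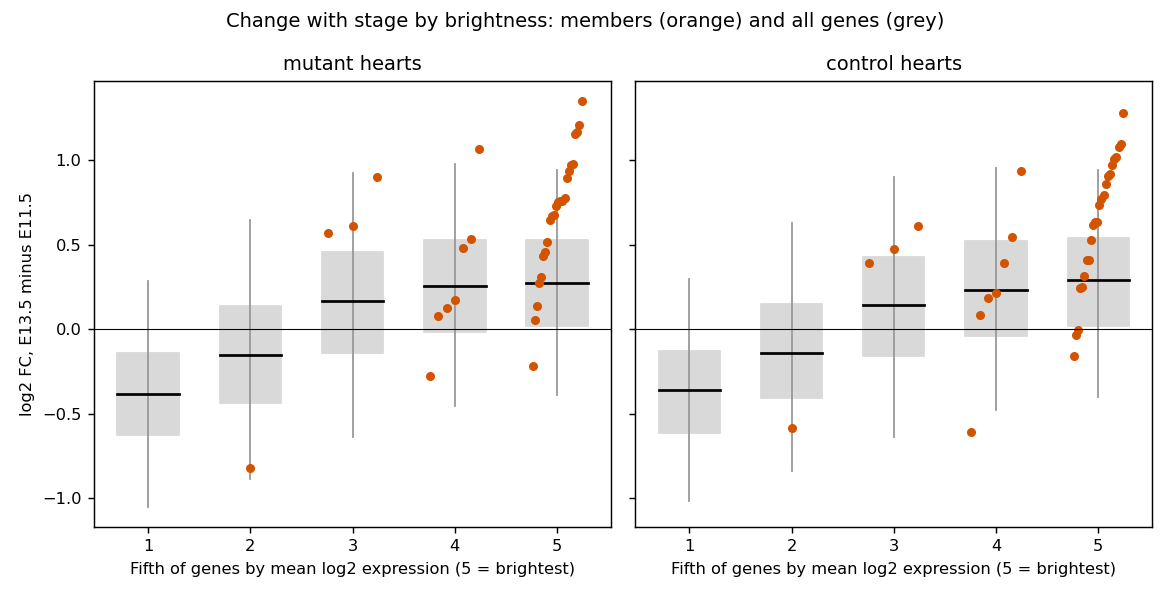
Log2 fold change at E13.5 relative to E11.5 for all genes in 5 equal groups by mean log2 intensity (grey: middle line, median; box, the middle 50% of genes; line, 5th to 95th percentile) with the members as orange dots, mutant hearts in one panel and control hearts in the other. In the brightest group the members' median lies at 0.74 in mutant and 0.68 in control hearts, above 0.27 and 0.29 for all genes there.

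Cell type markers moved with stage as well. The 11 cardiomyocyte markers averaged a log2 intensity of 12.64 to 12.72 at E13.5 against 12.39 to 12.62 at E11.5 in mutant hearts, and 12.66 to 12.71 against 12.42 to 12.52 in control hearts, with a median change of 0.22 and 0.21 in mutant and control hearts. Of these 11, 1 was called higher in mutant hearts (the cardiac transcription factor gene Nkx2-5, 0.61) and 2 in control hearts (Nkx2-5, 0.56, and Nppa, which encodes atrial natriuretic peptide, 0.61), and 3 and 2 had changes below 0, down to -0.34 in mutant and -0.23 in control hearts. The 8 macrophage markers averaged 7.93 to 8.55 at E13.5 against 7.0 to 7.79 at E11.5 in mutant hearts, and 7.78 to 8.08 against 7.15 to 7.38 in control hearts. Of these, 6 were called higher in mutant hearts and 5 in control hearts, among them C1qb (1.61 and 1.10), and Cd14, named after its values were seen, was called lower in control hearts (-0.52). Macrophages express Cd36 and Lpl. The 5 erythroid markers measured had medians of -0.84 and -0.74, with 2 called lower in each genotype. Whether a larger share of these cells contributed to the members' stage changes was not tested.

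Genes around the pathway, held in lists of their own, were read with stage beside the 16.8% and 16.5% of all genes upregulated in mutant and control hearts. Of 25 further measured genes of fatty acid oxidation, 11 were upregulated in mutant and 12 in control hearts, among them the acyl-CoA dehydrogenase Acad8 (1.01 and 0.98), the carnitine acetyltransferase Crat (0.82 and 0.70) and the fatty acid binding protein Fabp4 (2.31 and 2.80). Triglyceride storage and breakdown had 7 of 16 upregulated in both genotypes, including Dgat1, which completes triglyceride synthesis (0.85 and 0.81). Fatty acid synthesis differed from these lists: of 11 genes, the desaturase Scd1 was upregulated (0.79) and the elongase Elovl5 downregulated (-0.51) in mutant hearts, and none was called in control hearts. The median of that list was 0.06 in mutant and 0.09 in control hearts, close to the 0.04 of all genes.

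Among partner receptors and cofactors, 3 of 18 were upregulated in mutant hearts, a share near that of all genes, and 6 in control hearts, among them the mitochondrial deacetylase Sirt3 (1.00 and 0.63) and the Mediator subunit Med1 (0.65 and 0.73). Of 4 ketone body genes Acat1, a mitochondrial thiolase, was upregulated (0.81 and 0.69). Of 10 genes that bring glucose carbon into mitochondria, 4 were upregulated in mutant and 3 in control hearts, including Mpc1 of the mitochondrial pyruvate carrier (0.99 and 0.95). Genes of general mitochondrial content had 5 of 11 upregulated in mutant and 6 in control hearts, with list medians of 0.45 and 0.55, and Idh3a (0.76 and 0.90) and Mdh2 (0.71 and 0.74) of the citric acid cycle among them. The 21 hypoxia genes had 1 and 3 upregulated in mutant and control hearts, a lower share than all genes in mutant hearts and near it in control hearts. Their list medians were 0.22 and 0.35, against 0.04 for all genes in either genotype. No gene of any of these lists was called between mutant and control hearts at either stage, and the smallest unadjusted limma p among them was 0.00176, for the hypoxia-induced peptide gene Adm at E11.5 (1.21 higher in mutants, adjusted p = 0.172), in the list that stood highest in mutant E11.5 replicate 4. Outside the hypoxia list the smallest was 0.00347, for the acyl-CoA dehydrogenase Acad10 at E11.5 (0.44 higher in mutants, adjusted p = 0.222).

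PPARs and ERRs are nuclear receptors that recognise DNA elements built on the half-site AGGTCA, so the promoters of the members, most of which were upregulated with stage, were searched for it. Promoter windows from RefSeq (GRCm38.p6, 250 bases before to 50 after the start) covered 31 of the measured members with 36 promoters, and Lpl, Ppargc1b, Acaa2 and Decr1 had none. AGGTCA, read on both strands, lay in 7 of the 36 promoters (19.4%), a share near the 16.3% of 32851 promoters of all genes. The extended ERR element TCAAGGTCA and the direct repeat AGGTCANAGGTCA bound by PPARs, each of which contains AGGTCA, were in none of the members' promoters. Only 0.423% and 0.0396% of all promoters held them, so their absence from 36 promoters tells little. The sites upstream of a start are shown because their genes include Cd36, the member closest to a genotype difference, and Echs1, Acadvl and Ucp3, which were called with stage in both genotypes. Each sequence runs 5′ to 3′ on the strand of the gene, with the half-site, or its complement TGACCT, in capitals, and the distance is from the first base of the site to the start.
Cd36 (chr5:17836089-17836146, minus strand, 228 bases before the start): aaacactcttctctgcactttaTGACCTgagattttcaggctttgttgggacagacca
Acadvl (chr11:70015480-70015545, minus strand, 87 bases before the start): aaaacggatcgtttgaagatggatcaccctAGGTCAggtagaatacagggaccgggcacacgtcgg
Acadm (chr3:153944857-153944893, minus strand, 249 bases before the start): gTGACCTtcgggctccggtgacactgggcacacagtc
Echs1 (chr7:140116469-140116534, minus strand, 83 bases before the start): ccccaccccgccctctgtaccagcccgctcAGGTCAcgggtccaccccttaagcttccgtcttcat
Cpt1a (chr19:3323177-3323242, plus strand, 94 bases before the start): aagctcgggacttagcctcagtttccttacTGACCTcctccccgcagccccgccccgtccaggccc
Ucp3 (chr7:100472812-100472877, plus strand, 149 bases before the start): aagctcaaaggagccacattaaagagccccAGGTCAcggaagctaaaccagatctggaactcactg
Ucp3 (chr7:100472917-100472982, plus strand, 44 bases before the start): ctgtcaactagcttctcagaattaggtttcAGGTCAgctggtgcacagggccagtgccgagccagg

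The genes with a half-site did not share a direction with stage. Acacb, whose site lies after the start and is not shown, was not called. Cd36, Acadvl, Acadm and Echs1 were upregulated at E13.5 in both genotypes, Cpt1a was not called, and Ucp3, the one of these with more than one upstream site shown, was downregulated. A match of these letters describes the window and says nothing about binding, which was not measured here.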

How the data were processed

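RNA from 16 individual whole hearts was hybridised by the authors to Affymetrix Mouse Gene 1.0 ST arrays. The deposited table holds RMA log2 values made by the authors, with affy and limma named in their processing notes and no version given there. The values were used as deposited. A probe set was assigned through the platform annotation only where it named a single gene (21640 of 34760 probe sets; 1321 named several and 11799 none), with symbols updated by Entrez number, and the brightest probe set by mean represented each gene.

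Groups came from the sample labels. A model with 4 group means was fitted with limma 3.58.1 in R 4.3.3 over all 34760 probe sets, and a gene was called at a Benjamini-Hochberg adjusted p below 0.05 and a log2 fold change above 0.5 in size (adjusted p alone for the difference between stage changes). Exact two-sided permutation tests used SciPy 1.17.1. The fit was tested on simulated data before use. Alternatives were quantile and scale normalisation, removal of dim probe sets (below the 40th percentile), no fold threshold, the median over probe sets of one gene, a replicate block, a Y-linked covariate, leaving out each heart, and leaving out 3 hearts that an earlier analysis found apart.

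The members, gene lists, tests and alternatives were chosen with earlier results of these data known, so counts over them are descriptions. Members were shown in every heart by smallest p in mutant against control at each stage, and by largest or smallest stage change in control hearts. A fixed set of marker genes of the pathway was shown as well, and at most 3 genes were named from any other list. The number of arrays, 4 a group, limits the precision. Nothing says that hearts of one group came from separate litters, so the hearts may not be independent. The p-values set group differences against the spread between these hearts, and would be too small if hearts shared litters.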

Additional observations from a re-analysis of the deposited data

Results flagged for a closer look

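In 4 of the 140 combinations of a member and a group, one heart lay far from the other 3, where chance alone gives about 1 in 20 groups. Lpl read 10.88 in mutant E13.5 replicate 4, above 10.64 to 10.66 in the other mutant hearts. Cpt1a read 10.31 in mutant E13.5 replicate 3, below 10.51 to 10.55. Echs1 read 9.22 in mutant E11.5 replicate 3, one of the 3 hearts that stood apart in an earlier analysis, below 9.47 to 9.51. Hadhb, a subunit of the trifunctional protein, read 10.44 in control E11.5 replicate 1, below 10.70 to 10.74 in the other control hearts. The stage calls of Lpl and Echs1 held in both genotypes under all 26 alternatives run, which include leaving out each heart.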

How the results depend on the processing

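The count of members called between mutant and control hearts was 0 under every alternative run, at E13.5, at E11.5, over both stages and for the difference between stages. The members called upregulated with stage numbered 10 in mutant and 8 in control hearts when arrays were scaled to the same median and spread, and those called downregulated numbered 2 in mutant hearts under that scaling, where Acsl4 joined Ucp3 at -0.52, and 0 without dim probe sets. In control hearts 1 member was downregulated under quantile normalisation, the scaling, removal of dim probe sets or the replicate block, and 1 to 2 with a heart left out, since the call of Ucp3 was lost without any one of control E11.5 replicates 1 to 4 and control E13.5 replicates 2, 4 and 5. Counts of upregulated members with a heart left out were 21 to 23 in mutant and 18 to 20 in control hearts. Stage changes that turned direction belonged to members not called: under quantile normalisation Eci1 (-0.18) and Cpt2 (-0.11) in mutant hearts, and under the scaling Eci1 (-0.39), Cpt2 (-0.23) and Cpt1a (-0.10) in mutant hearts and Cpt1a (-0.052) and Esrrg (-0.061) in control hearts. In control hearts Eci1 was 0.00015 with the replicate block, 0.0045 with the Y-linked covariate, 0.018 without the 3 hearts and -0.073 to 0.018 with a heart left out, and Cpt2 was 0.0053, 0.035 and -0.094 to 0.084 with the covariate, without the 3 hearts and with a heart left out. Ppara in control hearts passed the fold without control E11.5 replicate 3 (0.54), without control E13.5 replicate 2 (0.52) and without control E13.5 replicate 1 or the 3 hearts (0.50), and Esrrg in mutant hearts passed it without mutant E11.5 replicate 3 (0.51) or E13.5 replicate 3 (0.56). Fabp3 fell below the fold under the scaling (0.46 in mutant and 0.41 in control hearts) and, in mutant hearts, with the median of its probe sets (0.41). Deviations of mutant and control hearts of one replicate number had correlations of -0.06 to 0.01, and those of different numbers -0.19 to 0.20. Whether the number marks a shared litter or shared processing cannot be told from these correlations. The replicate block moved Ucp3 in control hearts to -0.64 with adjusted p = 0.0665 and left 22 and 19 upregulated members and 0 genotype calls. The cause of these changes was not tested. Over all named values, called or not, 1124 alternatives left the call or its absence unchanged, 20 lost a call, 7 gained one and 16 turned direction. The number of arrays, 4 a group, limits the precision.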
